A study of Mus musculus with 6 samples.

Results

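The genes described here encode feedback inhibitors of MAP kinase signalling: the dual specificity phosphatases Dusp1, Dusp2, Dusp4, Dusp5, Dusp6 and Dusp10, the Sprouty proteins Spry1 and Spry2, and the Sprouty-related protein Spred1. They were chosen by gene symbol, 9 of the 15442 genes in the table. RNA was sequenced from cells of mouse liver sorted for the green fluorescence of a Foxp3 reporter, the mark of regulatory T cells, the CD4 T cell subset that holds immune responses in check. Of the 6 libraries, 3 carry the label AIH, for mice with modelled autoimmune hepatitis (an immune attack on the liver), and 3 the label control, and all came from reporter mice. The sources used here do not give how the disease was induced, the age and strain of the mice, or the number of animals or cells behind each library, so a p-value measures the spread between libraries, which may be technical. The protocol, SMART-Seq2, a method for very small amounts of RNA, speaks of lysing single cells.

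T cell receptor and cytokine signals pass through Ras and MEK to the kinase ERK, and through parallel arms to the kinases JNK and p38. The phosphatases of the DUSP family remove the activating phosphates from these kinases, and many of their genes are themselves switched on by the kinases, which closes a feedback loop. Sprouty and Spred proteins act further upstream, between the receptor and the kinases. In lymphocytes several of these genes are induced by antigen receptor signals.

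Expected counts summed to between 17780509 and 24572388 per library, and between 11706 and 12634 genes had at least 1 count. Foxp3, the gene behind the sort, lay at 0.267 to 4.13 CPM in the libraries labelled AIH, against 14.2 to 38.3 CPM in the controls, where CPM are counts scaled to a common library size. Levels this low in the AIH libraries go against the label of the sort, and the difference did not pass edgeR's test (adjusted p 0.501). The 4 Treg markers together, Foxp3 among them, summed to between 1389 and 1619 CPM in the AIH libraries, against 1030 to 1221 CPM in the controls. Ikzf2 and Ctla4 carried most of this sum, with means of 811 and 472 CPM, against 579 and 350 CPM. Of the 4 markers, these 2 had a positive log2 fold change, AIH minus control, and Il2ra and Foxp3 a negative one. As Foxp3 goes against the label of the sort, directions below rest on the labels. AIH 1 to AIH 3 stand for the libraries so labelled. Values per library are given in the order of these numbers. The 5 T cell markers summed to between 5814 and 6491 CPM in the AIH libraries, against 2431 to 3722 CPM in the controls. Cd3g and Cd3d made up most of this sum, with means of 3120 and 2155 CPM, against 1304 and 1237 CPM. Cd4 alone of the 5 had a lower mean in the AIH libraries, at 49.3, 93.3 and 28.3 CPM against 109, 82.0 and 80.7 CPM. Cd4 overlapped between the groups, and Lck was at a mean of 498 against 464 CPM. The 2 CD8 T cell markers summed to between 122 and 309 CPM, against 54.2 to 107 CPM. The 12 macrophage and Kupffer cell markers summed to between 411 and 2617 CPM, against 3614 to 14190 CPM in the controls. All 12 were negative on the log2 fold change scale, AIH minus control, for 11 every AIH library lay below every control (8.87% of all genes tested), and none was at 0 throughout the AIH libraries. The 4 B cell markers, all negative, summed to between 37.4 and 114 CPM in the AIH libraries, against 150 to 378 CPM in the controls. The 3 endothelial markers, all negative, summed to between 5.87 and 33.8 CPM, against 62.1 to 213 CPM. The 4 hepatocyte markers summed to between 271 and 1201 CPM, against 362 to 1247 CPM. None of these markers passed the test over all genes, and their part in the differences below was not tested.

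Promoter sequence was at hand for 8 of the 9 genes, all but Dusp4, from RefSeq's table of build GRCm38.p6. The 250 bases before the annotated start are shown for 3 of them: Dusp1, the gene with the smallest unadjusted p of the 9, Dusp2, the most evenly expressed, and Dusp5, the only one with a pair of adjacent CArG boxes. They are written 5′ to 3′, and capitals mark every match, on either strand, to the cyclic AMP response element TGACGTCA, its core TGACG, and the CArG box, to which serum response factor binds. The windows are chr17:26508473-26508722, minus strand for Dusp1, chr2:127335909-127336158, plus strand for Dusp2, and chr19:53528895-53529144, plus strand for Dusp5.
Dusp1: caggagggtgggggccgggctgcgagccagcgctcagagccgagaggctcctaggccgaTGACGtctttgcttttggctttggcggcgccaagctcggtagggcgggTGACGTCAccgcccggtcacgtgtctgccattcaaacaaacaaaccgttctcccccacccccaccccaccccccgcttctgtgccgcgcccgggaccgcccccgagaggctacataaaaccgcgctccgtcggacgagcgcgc
Dusp2: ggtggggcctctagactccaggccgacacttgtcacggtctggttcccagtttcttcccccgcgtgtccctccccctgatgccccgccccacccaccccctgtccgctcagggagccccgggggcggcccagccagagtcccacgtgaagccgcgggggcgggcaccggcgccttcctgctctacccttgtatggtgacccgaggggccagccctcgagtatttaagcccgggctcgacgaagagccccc
Dusp5: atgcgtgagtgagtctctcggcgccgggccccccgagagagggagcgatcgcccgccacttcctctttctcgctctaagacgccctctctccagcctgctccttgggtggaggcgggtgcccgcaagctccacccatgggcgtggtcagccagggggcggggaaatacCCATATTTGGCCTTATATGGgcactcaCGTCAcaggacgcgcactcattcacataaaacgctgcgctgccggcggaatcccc

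The whole element TGACGTCA stood in the Dusp1 window at 143 bases before the start and in none of the other 7 windows. It is found in 1.55% of the 32851 windows of this length in the table. The core TGACG, which the whole element holds on each strand, stood once more in Dusp1, at 191 bases, and once in Dusp5. It is found in 17.8% of all windows. The CArG boxes of Dusp5 begin 82 and 72 bases before the start and follow each other without a gap, while 1.47% of all windows hold any such box. Neither the AP-1 motif TGANTCA nor the ETS motif CCGGAAG matched in any of the 8 windows, against 6.75% and 6.91% of all windows. These matches describe letters and say nothing of a factor's binding in these cells. The members' windows held between 56.4 and 70.8% G and C, with a median of 52.4% over all windows.

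Dusp1 and Dusp2 supplied most of the transcripts of the group. On the TPM scale, which corrects for gene length, the 9 genes summed to 104.9, 159.8 and 83.6 TPM in the AIH libraries, against 51.1, 62.1 and 74.2 TPM in the controls. Every AIH library thus lay above every control for the sum, the lowest AIH value (83.6 TPM) being near the highest control (74.2 TPM). In TPM 5.19% of all genes tested were separated in this direction, while Dusp1 and Dusp2 both overlapped between the groups. How often sums of 9 genes are separated was not computed. Dusp1 and Dusp2 together made up 82.8, 80.2 and 58.4% of the sum in the AIH libraries, against 74.5, 81.9 and 63.0% in the controls. This share thus overlapped between the groups. Dusp1 alone made up 39.7, 57.6 and 23.3% in the AIH libraries, against 20.0, 25.9 and 28.2% in the controls. Fewer cells of a type and less RNA per cell cannot be told apart in these libraries.

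**Figure D1:**
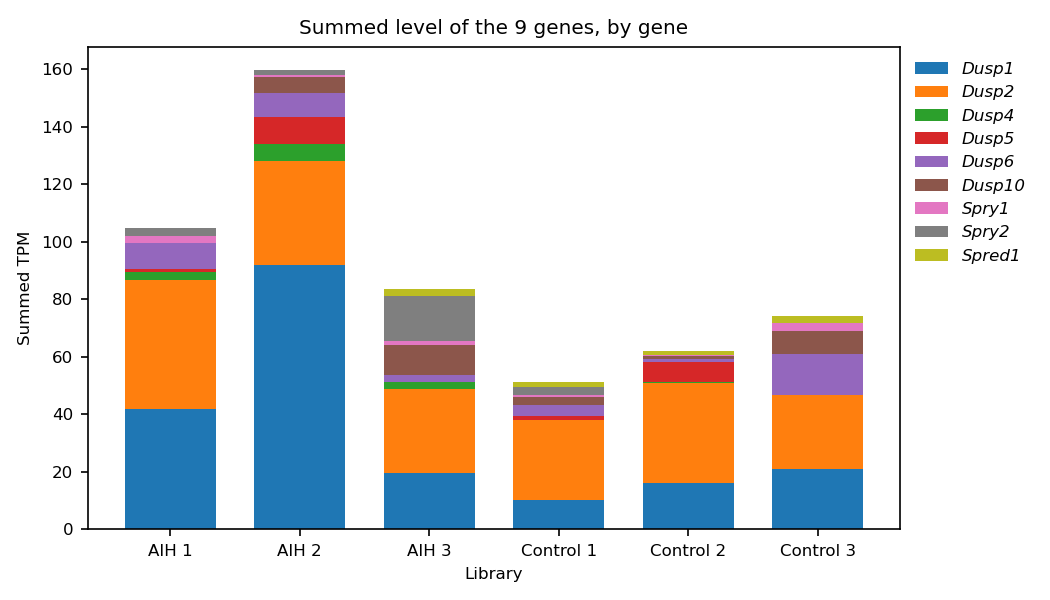
Summed level of the 9 genes in TPM (vertical axis) in each library (horizontal axis), with 1 colour per gene. The AIH libraries sum to between 83.6 and 159.8 TPM and the controls to between 51.1 and 74.2 TPM, and Dusp1 and Dusp2 fill most of every bar.

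In the AIH libraries Dusp1 came first in the order of levels, with 51.0 ± 37.2 TPM, ahead of Dusp2 with 36.9 ± 7.95 TPM (SD, n = 3 per group), and their ranges overlapped. The lowest Dusp2 value there, 29.4 TPM, lay above all AIH values of the other 7 genes. In the controls Dusp2 came first, with a mean of 29.5 ± 4.68 TPM (SD, n = 3), and its lowest library (25.8 TPM) lay above the highest Dusp1 value (20.9 TPM). Below these, in both groups, the range of each gene overlapped that of the next in the order. Dusp4 stood at place 6 in the AIH libraries and last in the controls.

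None of the 9 genes passed edgeR's quasi-likelihood test over all 11140 genes tested, of which 10 passed (0.0898%), 0.0808% as higher in AIH. All 9 were tested. Dusp1 alone had an unadjusted p under 0.05, as did 8.27% of all genes, 4.42% as higher in AIH. DESeq2's Wald test also called none of the 9, against 1.62% of all genes, and had 2 of them at an unadjusted p under 0.05, against 10.8%. Likewise limma-voom called none, against 0.189%, and had 2 at an unadjusted p under 0.05, against 10.3%. The log2 fold change, AIH minus control, was positive for 8 of the 9 and negative for Spred1, with a median of 0.72, while 48.1% of all genes tested had a positive one and their median was −0.04. In 3 of the 9, Dusp1, Dusp2 and Dusp4, every AIH library lay above every control in CPM, as it did for 8.46% of all genes tested, while 17.3% were separated in either direction. The share depends on the scale: it was 8.64% with DESeq2 size factors, 5.77% with library totals and 5.19% in the deposited TPM. With library totals as the scaling Dusp2 overlapped, and in TPM Dusp1 and Dusp2 both overlapped. Dusp4 was thus the 1 member separated on all 4 scales tried, and the share of all genes separated on all 4 was not computed. Since 2 controls had 0 counts of Dusp4, a change of scale could hardly alter its result.

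**Figure D2:**
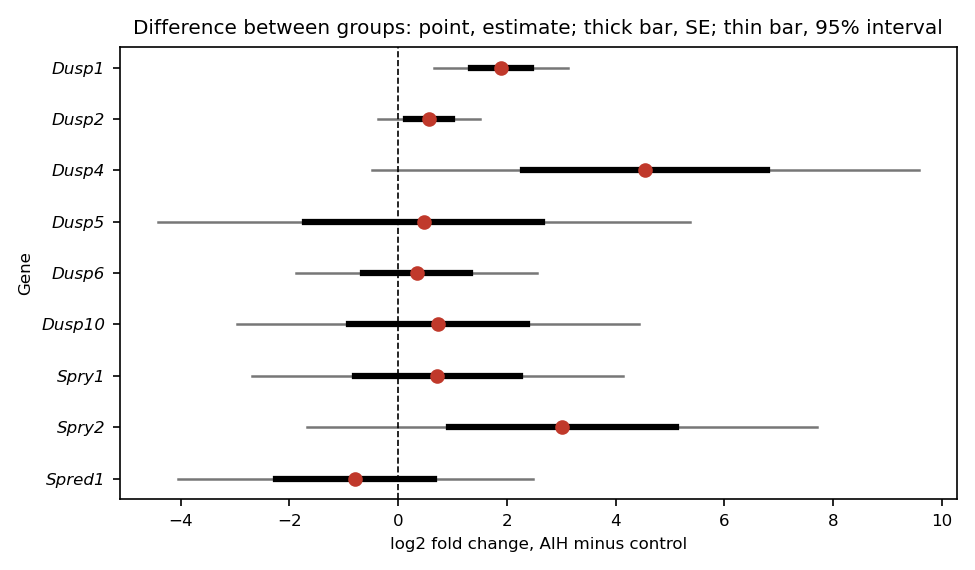
Log2 fold change of each gene, AIH minus control (horizontal axis), with its standard error (thick bar) and approximate 95% interval (thin bar). Only the interval of Dusp1, 0.66 to 3.13, lies wholly above 0, and those of Dusp4, Dusp5 and Spry2 are the widest.

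Dusp1 encodes a nuclear phosphatase that acts on p38, JNK and ERK and is induced within minutes by many stimuli, and its window above holds the whole TGACGTCA. Its level was 102, 179 and 43.2 CPM in the AIH libraries, against 20.5, 29.9 and 36.6 CPM in the controls. AIH 2 stood highest, and AIH 3 came close to the highest control. In TPM the values were 41.6, 92.0 and 19.4 in the AIH libraries, against 10.2, 16.1 and 20.9 in the controls, and there AIH 3 lay below Control 3. The log2 fold change was 1.90 (SE 0.55; 95% interval 0.66 to 3.13), with an adjusted p of 0.422 by edgeR's quasi-likelihood test. Without AIH 2, the library with the highest value, it was 1.31. Genes that respond to tissue dissociation, a set to which Dusp1 is often counted, showed no shared direction: of the 10 tested, 5 were positive and 5 negative on the log2 fold change scale, and their median was −0.15. All 12 listed, the untested Atf3 and Hspa1b included, summed to between 308 and 571 CPM in the AIH libraries, against 368 to 552 CPM in the controls. Atf3 was at a mean of 0.0487 CPM in the AIH libraries against 1.16 CPM, and Hspa1b at 0.393 against 5.45 CPM. Of the tested genes Nr4a1, a nuclear receptor gene induced by T cell receptor signals, was at 41.1, 54.7 and 15.9 CPM in the AIH libraries, against 26.7, 12.3 and 1.68 CPM in the controls. Btg2, which encodes an antiproliferative factor, was at 39.4, 81.4 and 73.3 CPM in the AIH libraries, against 113, 119 and 51.0 CPM in the controls. Both overlapped between the groups, and neither passed the test.

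Dusp2 encodes a nuclear phosphatase that is largely restricted to haematopoietic cells. It was at 45.2, 36.2 and 29.4 TPM in the AIH libraries, against 27.9, 34.8 and 25.8 TPM in the controls. It was the steadiest of the 9 genes, with a standard deviation of 30.1% of the mean CPM in the AIH libraries and 17.7% in the controls. The 1607 genes within 0.5 log2 units of its level had medians of 38.7 and 36.5%. For Dusp2 the log2 fold change was 0.57 (SE 0.42; 95% interval −0.37 to 1.51; adjusted p 0.787 by edgeR's quasi-likelihood test).

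Dusp4 encodes a nuclear phosphatase that, like Dusp1, acts on several MAP kinases. It had 153, 316 and 134 counts in the AIH libraries, against 0, 24 and 0 in the controls. This is 2.62, 5.78 and 2.30 TPM against 0, 0.52 and 0 TPM. The groups were apart on all 4 scales, for which no joint share over all genes was computed. The counts of 0 allow a level of up to 0.121 CPM in Control 1 and 0.115 CPM in Control 3, where 3 counts are taken as the limit. Such limits cover counting error only, since amplified copies were not told apart. The log2 fold change was 4.54 (SE 2.24; 95% interval −0.49 to 9.58), with an adjusted p of 0.666 by edgeR's quasi-likelihood test, and it was 3.96 without Control 3 and 10.8 without Control 2, the 1 control with counts; the last value depends on the prior count and is no bound. Dusp4 passed the filter on low counts through the AIH libraries, since only 1 control reached the minimum, and the same holds for Spry2.

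**Figure D3:**
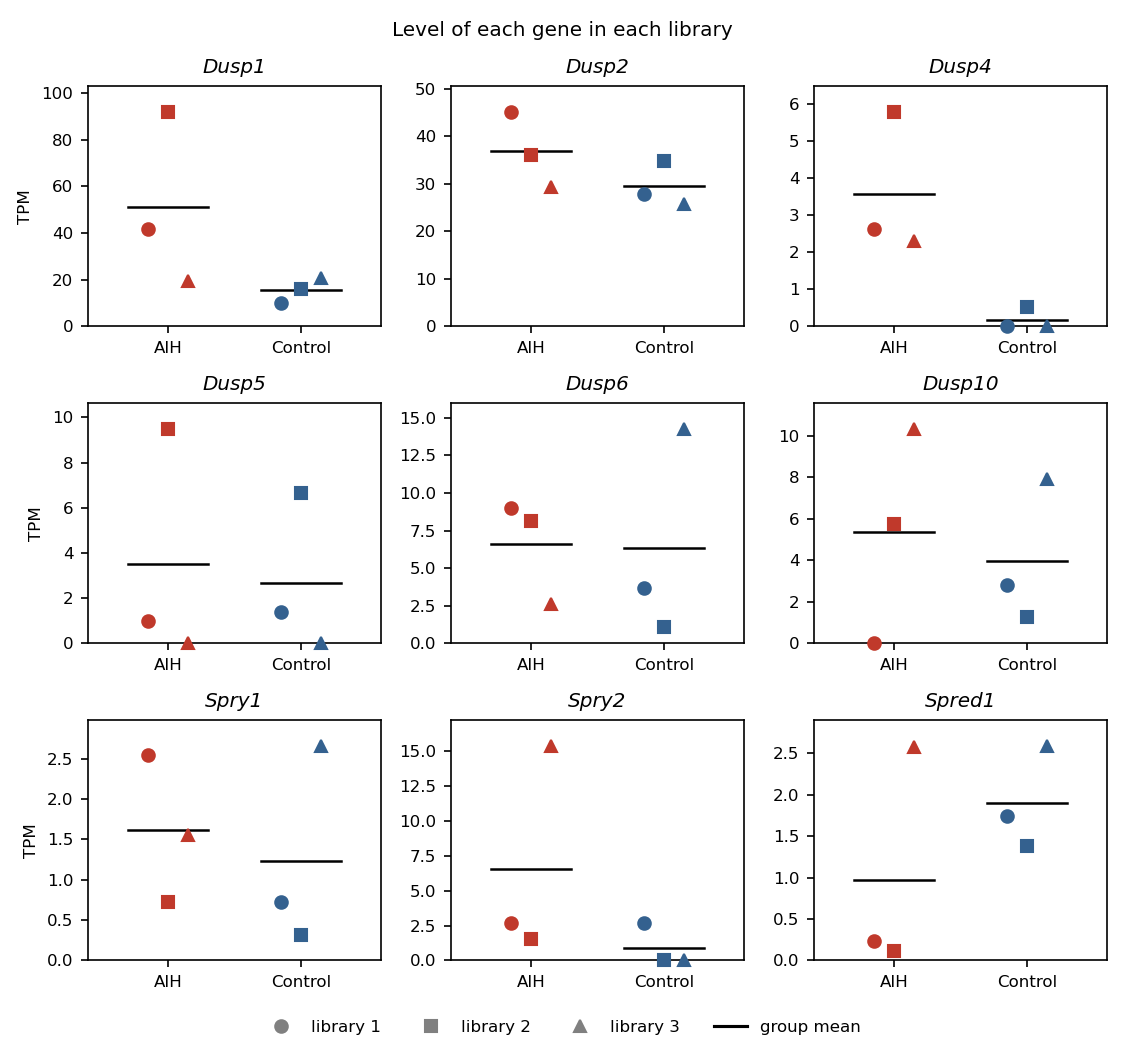
TPM (vertical axes, each from 0) of the 9 genes in the AIH and control libraries (horizontal axes). Each symbol is 1 library and each black line a group mean. The groups are separate for Dusp4 only, with AIH above, as for 5.19% of all genes tested in TPM. For Dusp5, Dusp10, Spry2 and Spred1 single libraries stand far from the others of their group.

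The ERK-selective phosphatase genes were not separated between the groups. Dusp5, the gene with the CArG boxes above, whose product acts on ERK in the nucleus, was at 1.01, 9.50 and 0.02 TPM in the AIH libraries, against 1.37, 6.66 and 0 TPM in the controls. In both groups library 2 carried most of it, while AIH 3 and Control 3 had 1 count and 0 counts. The log2 fold change was 0.47 (SE 2.18; 95% interval −4.42 to 5.36), and it turned to −2.02 without AIH 2 and to −0.11 without Control 3. Dusp6, whose product acts on ERK in the cytoplasm, was at 8.99, 8.15 and 2.61 TPM in the AIH libraries, against 3.70, 1.10 and 14.3 TPM in the controls. The control group held both the highest and the lowest value. Its log2 fold change was 0.34 (SE 0.99; 95% interval −1.88 to 2.56), and it turned to −0.09 without AIH 1 and to −0.17 without Control 2. By edgeR's test the adjusted p was 0.984 for Dusp5 and 0.970 for Dusp6.

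Dusp10 encodes a phosphatase that prefers p38 and JNK to ERK. It was at 0, 5.75 and 10.3 TPM in the AIH libraries, against 2.79, 1.25 and 7.91 TPM in the controls, so the AIH group held both the lowest and the highest library. For Dusp10 the log2 fold change was 0.73 (SE 1.65; 95% interval −2.96 to 4.43; adjusted p 0.961 by edgeR's quasi-likelihood test). It turned to −0.30 without AIH 3. By transcript the libraries differed in another way. NM_022019.6 had 0, 366 and 648 counts in the AIH libraries and 0 in every control. XM_006497188.2 had 0, 0 and 48.4 counts in the AIH libraries, against 194, 63 and 505 in the controls. Thus the controls' Dusp10 counts were wholly assigned to the XM model, and those of AIH 2 and AIH 3 to the NM model by 100 and 93.0%. Since AIH 1 had 0 counts, the contrast rests on AIH 2 and AIH 3 alone. How often other genes show such a split was not computed. NM_022019.6 did not pass the filter, and XM_006497188.2 had a log2 fold change of −3.71 (SE 2.60) with an adjusted p of 0.9998 by edgeR's quasi-likelihood test. No source used here gives how reads were shared between the transcripts, and the error of that step was not modelled.

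**Figure D4:**
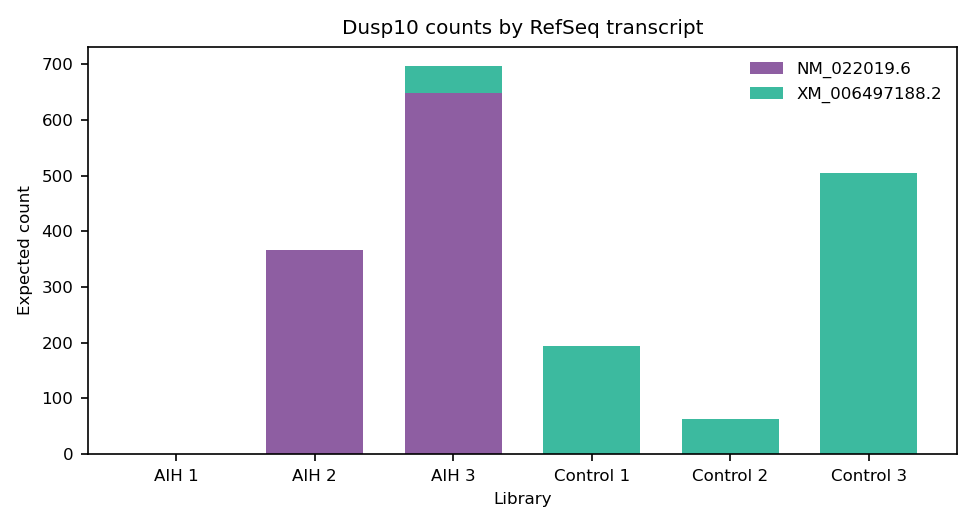
Expected counts of Dusp10 (vertical axis) in each library (horizontal axis), split by RefSeq transcript. The 3 controls hold XM_006497188.2 alone, AIH 2 holds NM_022019.6 alone, AIH 3 holds 648 counts of NM_022019.6 beside 48.4 of the other, and AIH 1 has no count.

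Of the 12 transcripts of the 9 genes, 9 were tested and none was called by edgeR's quasi-likelihood test among 17999 transcripts, of which 0 passed (0%) and 4.16% had an unadjusted p under 0.05. Among the members' transcripts, that of Dusp1 had one under 0.05. For 6 of the 9 genes the table held 1 transcript only. Spry2 counts stood almost wholly on NM_011897.3. Spred1 counts stood almost wholly on NM_033524.3, except in AIH 1, where all 11 were on NM_001277256.1.

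The Sprouty and Spred genes all overlapped between the groups. Spry1, an inhibitor of T cell receptor signals to Ras and ERK, was at 2.54, 0.73 and 1.56 TPM in the AIH libraries, against 0.73, 0.32 and 2.66 TPM in the controls. These ranges overlapped, with a log2 fold change of 0.72 (SE 1.52; 95% interval −2.69 to 4.13), and it was 0.13 without AIH 1 and 1.84 without Control 3. Spry2, which restrains signals from growth factor receptors to Ras and ERK, was at 2.68, 1.57 and 15.4 TPM in the AIH libraries, against 2.67, 0.03 and 0 TPM in the controls. AIH 3 stood far above the rest, and Control 2 and Control 3 had 1 count and 0 counts. Its log2 fold change was 3.02 (SE 2.09; 95% interval −1.67 to 7.70), and it was 1.41 without AIH 3 and 9.07 without Control 1, the 1 control with more than a single count. Spred1, which brings the Ras inhibitor neurofibromin to the membrane, was at 0.23, 0.11 and 2.57 TPM in the AIH libraries, against 1.74, 1.38 and 2.59 TPM in the controls. In TPM AIH 3 lay within the range of the controls, and AIH 1 and AIH 2 below it. In CPM AIH 3, at 20.0, lay above the highest control, at 15.6. For Spred1 the log2 fold change was −0.79 (SE 1.45; 95% interval −4.05 to 2.47), and it was −4.23 without AIH 3. By edgeR's quasi-likelihood test the adjusted p was 0.957 for Spry1, 0.775 for Spry2 and 0.948 for Spred1.

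The spread within a group was large for most of the 9 genes. In 3 of them, Dusp5, Dusp10 and Spry2, 1 library had over 100 counts while another of the same group had 0, a pattern that 10.8% of all genes tested showed. The standard deviation of Dusp5 was 143% of its mean CPM in the AIH libraries and 129% in the controls, where the medians of 1407 genes at a like level were 96.0 and 87.8%. For Spred1 it was 157% in the AIH libraries and 27.0% in the controls, with medians of 83.3 and 73.0% at its level. Not every gene exceeded the median of its level. In the AIH libraries Dusp2, Dusp4, Dusp6 and Spry1 lay below it and the other members above it. For Dusp4 this was in part set in advance. It passed the filter through the AIH libraries, and levels were matched on the mean of all libraries, AIH and control. In the controls Dusp1, Dusp2 and Spred1 lay below it and the other members above it.

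The 9 genes did not share 1 profile over the libraries. With each profile of log2 CPM centred on its own mean, the closest pair was Dusp6 and Spry1, with a root mean square difference of 0.82 log2 units over the 6 libraries. Both were high in AIH 1 and Control 3 and lowest in Control 2. Dusp1 and Dusp2 differed by 0.89, and the most unlike pair, Dusp5 and Dusp10, by 4.68. Other genes came closer, which is likely in advance where 9 members stand among 11140 genes tested. The nearest to Dusp1 was Nav2 (0.20), to Dusp2 Prps1l3 (0.06), to Dusp4 Gins3 (0.65), to Dusp5 Zfp365 (0.62), and to Dusp6 Prmt7 (0.33). The nearest to Dusp10 was 4931406C07Rik (0.39), to Spry1 Ing2 (0.24), to Spry2 Hspb1 (0.49), and to Spred1 Gdpd3 (0.37). For Dusp1 the nearest member, Dusp2, came at place 741 among all genes tested, while for Dusp2 the nearest member, Dusp1, came at place 4771. The place of the nearest member ran from 126, for Dusp6 with Spry1, to 6071, for Spred1 with Dusp10. Gins3, like Dusp4, had counts in all AIH libraries (384, 360 and 364) and in Control 2 alone of the controls (62).

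Among the rest of the DUSP, Sprouty and Spred families, 13 of 19 genes were tested. None passed edgeR's test over all genes, 6 had a positive and 7 a negative log2 fold change, and the median was −0.44. An unadjusted p under 0.05 was found for 2, as for 8.27% of all genes tested. Both encode atypical phosphatases, and their signs were opposite. Dusp14, whose product dampens T cell receptor signals, had a log2 fold change of 2.54 (SE 0.96), with 84.9, 13.6 and 21.1 CPM in the AIH libraries against 8.02, 10.4 and 2.18 CPM in the controls. Dusp22, whose product inactivates the T cell receptor kinase Lck, had one of −2.03 (SE 0.80), with 10.8, 6.17 and 9.26 CPM against 26.0, 14.0 and 66.7 CPM. Dusp3, whose product acts on ERK and JNK, had one of −1.93 (SE 1.09). Of the other MAP kinase phosphatases Dusp16, which acts on JNK and p38, had −1.02 (SE 1.30) and Dusp7, an ERK phosphatase, −0.44 (SE 1.17). Spred2, the close relative of Spred1, had a log2 fold change of −1.04 (SE 0.70), with an adjusted p of 0.763 by edgeR's test. Every AIH library lay below every control, as for 8.87% of all genes tested.

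The kinases that these inhibitors act on, and the Ras proteins above them, mostly had negative log2 fold changes, none of which passed the test. Of 34 tested genes of the Ras to ERK core, the Ras GAPs, and the p38 and JNK arms, 23 were negative and the median was −0.42. None was called, and 2 had an unadjusted p under 0.05, against 8.27% of all genes tested. For 8 every AIH library lay below every control, against 8.87% of all genes tested. For 0 every AIH library lay above, against 8.46%. Of the core, 13 of 17 were negative with a median of −0.56. Map2k1, which encodes a MEK kinase, had a log2 fold change of −1.08 (SE 0.49) with 27.9, 33.7 and 31.1 CPM in the AIH libraries, against 35.9, 65.4 and 94.9 CPM in the controls. Rasgrp1, which activates Ras downstream of the T cell receptor, had the opposite sign, at 0.65 (SE 0.37). Of the Ras GAPs, which switch Ras off, Rasal3 stood at 1.32 (SE 0.52), Rasa1 at 0.86 (SE 0.42) and Rasa3 at −1.39 (SE 0.56). In the p38 arm 3 of 6 were negative, with Mapk14, the main p38 gene, at −0.78 (SE 0.42), Map2k6 at 1.10 (SE 1.40) and Mapk11 at −1.22 (SE 1.69). In the JNK arm 3 of 5 were negative, with Mapk9 at −0.66 (SE 0.51), Map2k7 at −0.60 (SE 0.74) and Mapk8 at 1.0 (SE 1.32).

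Of the other genes that ERK signals switch on, 8 of 12 were tested, 6 had a positive log2 fold change and the median was 0.73. None was called over all genes tested. An unadjusted p under 0.05 by edgeR's test was found for 2, as for 8.27% of all genes, 4.42% as higher in AIH. The 2 were Egr2 and Egr3, transcription factor genes that T cell receptor signals induce and that limit T cell activation. Egr2 had 497, 734 and 325 counts in the AIH libraries, against 8, 32 and 0 in the controls. Its log2 fold change was 5.26 (SE 1.63), with an adjusted p of 0.449 by edgeR's quasi-likelihood test. Egr2 took place 3 in likeness to Dusp4, with a root mean square difference of 0.74 log2 units. Gins3 (0.65) and Ccl4 (0.695), which are not in this list, came closer. Genes with few counts in the controls and more in every AIH library come near Dusp4 by this measure, so no link is drawn from the place. Egr3 had 604, 672 and 145 counts in the AIH libraries, against 50, 47 and 0 in the controls, with a log2 fold change of 3.97 (SE 1.63). Ccnd1, which encodes cyclin D and is also counted among ERK outputs, had a log2 fold change of −2.84 (SE 1.48). Egr2, like Dusp4, passed the filter on low counts through the AIH libraries, since 1 control reached the minimum, and these 3 genes are named because they had the smallest p of the list.

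**Figure D5:**
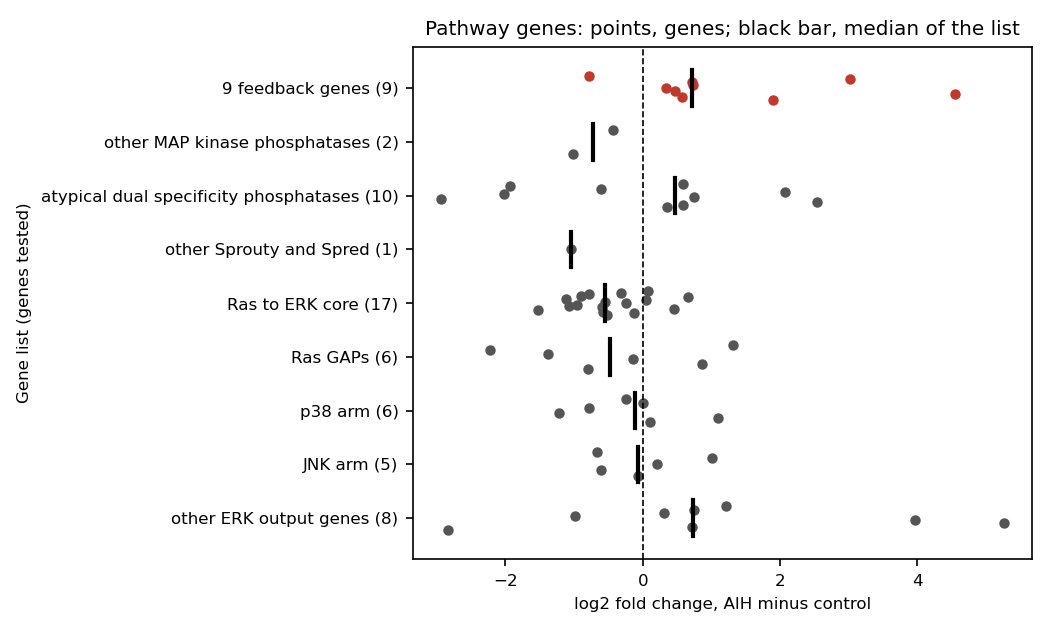
Log2 fold change, AIH minus control (horizontal axis), of the 9 genes (red) and of the tested genes of 8 pathway lists (grey), with the median of each as a black bar. The medians are 0.72 for the 9 genes, 0.73 for the other ERK output genes, 0.47 for the atypical phosphatases and below 0 for the other 6 lists.

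Of the 9 genes, 3 share exonic bases with a gene on the opposite strand in the GENCODE annotation of build GRCm38, and whether counting used strand is not given. Dusp1 shares 0.332% of its exonic bases with Ergic1, Dusp5 shares 22.1% and Spry1 24.4% with genes that the table does not list.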

How the data were processed

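RNA was measured in 6 libraries, 3 per group. The authors deposited, per gene and transcript, the expected count, TPM, FPKM and a normalized signal; FPKM, signal and the columns of group averages were not used. Of the expected counts 14.8 to 16.7% per library were not whole, and they are estimated reads without normalization, per the file headers and values. TPM are corrected for length, per the file headers. The tools STAR, FastQC and featureCounts, and the builds mm39 and GRCm39, appear without role or version, per the submitters' processing notes.

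Expected counts, rounded, were tested with edgeR 4.0.16 (R 4.3.3): filterByExpr (minimum count 10, total 15), TMM factors, quasi-likelihood tests of the group, the sole term, and adjustment over all features by Benjamini-Hochberg at 0.05. SE is the log2 fold change divided by the square root of F, without sign, and the 95% interval uses the fit's degrees of freedom. Both are approximate, above all for genes with few counts. Alternatives used DESeq2 1.42.0, limma 3.58.1 and the settings given below. The scripts were tested on simulated data. The members, lists and alternatives were chosen with earlier results of these data known. Named are all 9 members, up to 3 genes per list with the smallest p, and the gene nearest to each member in pattern, on log2 CPM with a prior count of 2; 1 result that this rule names is not reported here. Egr2 and Ccl4 beside Dusp4, Atf3, Hspa1b, Ergic1 and the comparison with Gins3's counts were chosen after their values were seen.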

Additional observations from a re-analysis of the deposited data

How the results depend on the processing

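None of the 9 genes was called under any of the 14 alternatives, nor any of their transcripts under the 9 tried for transcripts. The adjusted p of Dusp1 ranged from 0.057 with DESeq2's Wald test to 0.761, and its log2 fold change from 1.31 without AIH 2 to 2.26 without AIH 3. Dusp1, Dusp2, Dusp4, Spry1, Spry2 and Spred1 kept the sign of their log2 fold change under the alternatives that tested them; a minimum of 10 CPM in 3 libraries left out Dusp4, Dusp5, Spry1 and Spry2. The sign turned for Dusp5 without AIH 2 (−2.02) and without Control 3 (−0.11), with 2.35 without Control 2 as its highest value, and for Dusp6 without AIH 1 (−0.09) and without Control 2 (−0.17), with 1.62 without Control 3 as its highest. It turned for Dusp10 without AIH 3 (−0.30; 1.61 without Control 3), with limma-voom (−1.66) and with the replicate block (−0.080); the cause was not tested. Library totals as the scaling moved the median of all genes from −0.04 to −0.23 and that of the 9 genes from 0.72 to 0.49.

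Over all genes, where 10 were called, edgeR called 3 with library totals, 32 without the filter, 0 to 1 with any 1 library left out, and 1 without AIH 1 and Control 3 together, with 909, 1170, 695 to 999 and 801 genes at an unadjusted p under 0.05. DESeq2's Wald test called 180 and limma-voom 21. With the replicate number as a block edgeR called 0, with 829 at an unadjusted p under 0.05. The titles' numbers are not known to pair libraries: the deviations of same-numbered libraries correlated at 0.0132, 0.00134 and 0.191 across genes, and AIH 1 and AIH 2 correlated more with a control of another number. Without the filter 24 of all transcripts passed, and under the other settings for transcripts 0 did. At these depths counting error matters most for genes at or near 0 counts.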
